A study of Chromochloris zofingiensis with 14 samples.

Results

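The first introns described here interrupt a gene within the first 50 bases of its coding region, in the deposited gene annotation of the unicellular green alga Chromochloris zofingiensis. They were chosen by the length of the first coding segment in transcript direction: a first intron was called early when that segment was 50 bases long or shorter, and later when it was longer. On the 19 chromosomes, 1444 of 12110 first introns were early, 11.9% (11.4 to 12.5, 95% Clopper-Pearson interval, which covers counting error only). The other 10666 were later, and 2317 of the 14427 chromosomal genes had no intron in their coding region. The series as a whole sequenced RNA of 14 cultures of strain SAG 211-14, 1 library per growth condition. Among the conditions were low, medium and high light, darkness, omission of single nutrients, glucose, hydrogen peroxide, rose bengal and lack of oxygen. The gene models are common to all cultures and hold no value of any of them. No expression value and no comparison between conditions is therefore given here.

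A eukaryotic gene is transcribed with its introns, and the spliceosome cuts them out and joins the flanking exons. In many plants and animals introns close to the start of a gene can raise its expression, and in the related alga Chlamydomonas reinhardtii a first intron is often added to transgenes for that purpose. In proteins made in the cytosol and imported into plastid or mitochondrion, the N-terminal residues usually form the targeting peptide, so an early intron lies in or before the codons for it. The phase of an intron says where it cuts the reading frame: between codons in phase 0, after the first base of a codon in phase 1 and after the second base in phase 2. Only coding segments are annotated, so the exon that holds the start codon may be longer than its coding part, and introns in untranslated sequence are not among those counted.

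Early introns sat at every possible distance from 3 to 50 coding bases, and no first segment had 1 or 2 bases, so none of them cut the start codon itself. The median first segment was 30 bases (quartiles 18 and 41), which encodes only a short run of N-terminal residues. In 60 genes the first segment was 3 bases long, the start codon alone. The lengths next to it were rare, with 10 genes at 4 bases and 4 genes at 5. From 6 to 50 bases the number of genes per length depended on the frame. Lengths that are a multiple of 3 held a median of 39 genes each (range 21 to 69), those that leave 1 base over held 28 (15 to 56), and those that leave 2 over held 21 (11 to 30). At the limit itself, 30 genes had 50 bases and 68 had 51. The former length leaves 2 bases over and the latter is a multiple of 3. The same step in frame had 21 and 55 genes at 47 and 48 bases, and 28 and 74 at 53 and 54. The median first intron was 163.5 bases in the former and 196.5 in the latter, and over the 5 lengths on either side it was 224 bases (46 to 50, 184 genes) and 205 bases (51 to 55, 245 genes). These sets of 5 lengths are unlike in frame, with 29.9% of introns in phase 0 at 46 to 50 bases and 58.0% at 51 to 55. Lengths on both sides of the limit form a continuous range.

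**Figure D1:**
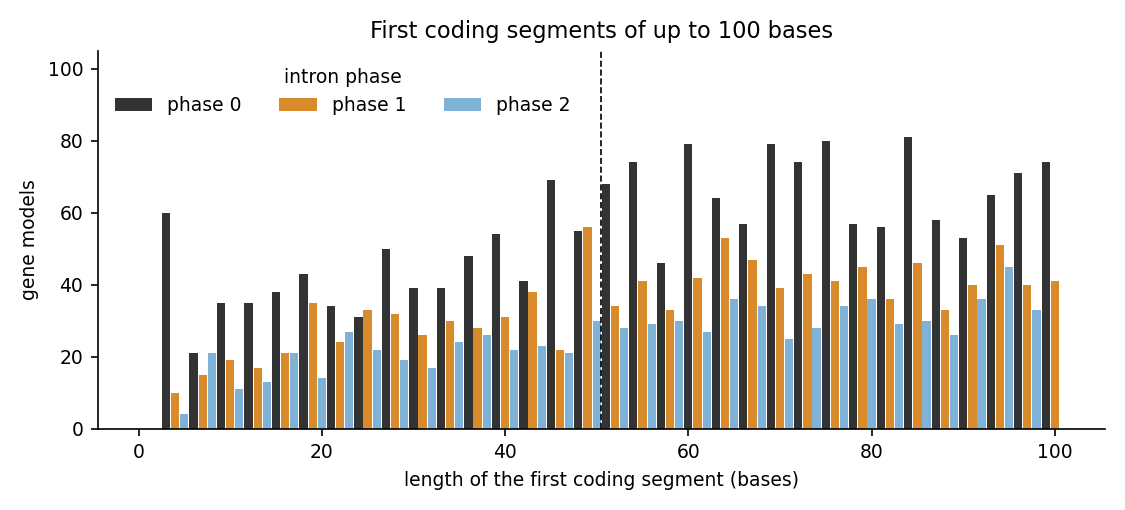
Number of chromosomal gene models (y axis) by length of the first coding segment in bases (x axis), coloured by the phase of the intron that follows; the dashed line marks the limit of 50 bases. Segments of 3 bases stand out with 60 genes beside 10 and 4 at the next lengths, and the lengths in phase 0 are the highest in most triplets.

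Segments of 50 bases or shorter made up a larger share of first segments than of others. Against 11.9% of first segments stood 2.12% of last segments (257 of 12110), 1.57% of internal segments (736 of 46761) and 3.70% of second segments in genes with 2 or more introns (369 of 9964). A start codon and the coding part behind it can share an exon with untranslated sequence, and a last coding segment can too, whereas an internal segment is a whole exon, so these shares compare unlike pieces. In 8 early hosts the second intron also lay within the first 50 coding bases. Cz06g05150 had segments of 14 and 16 bases before its next one, and Cz08g07040 had 5 and 27.

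Early introns were shorter than later ones. Their median was 198 bases (quartiles 108 and 294.5), against 243 bases (171 and 319) for later first introns. The difference in medians, −45 bases, had the same sign on all 19 chromosomes (mean −43.6 ± 20.2 bases, SD, n = 19 chromosomes), from −83.5 on chromosome 14 to −18.5 on chromosome 19. This difference was larger than its spread between chromosomes. No test was run, since gene models are not replicates of each other.

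The lower median came with a larger share of very short introns. Introns of 100 bases or shorter made up 22.3% of early first introns (322 of 1444) and 11.4% of later ones (1220 of 10666). The share was higher among early introns on 18 of 19 chromosomes (mean difference 10.04 ± 4.95 percentage points, SD, n = 19 chromosomes), and chromosome 17 was the exception with 2.78% and 4.40%. Of the 322 short early introns, 306 were 70 to 99 bases long, with a median of 81 bases for all 322. Introns of 80 to 99 bases formed the highest step of the early distribution, with 12.2% of it, whereas the later distribution was highest at 240 to 259 bases with 8.02%. At the other end, introns of 500 bases or longer made up 4.02% of early and 2.93% of later first introns, and this difference was smaller than its spread between chromosomes (1.30 ± 3.34 percentage points, SD, n = 19 chromosomes, higher on 12).

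**Figure D2:**
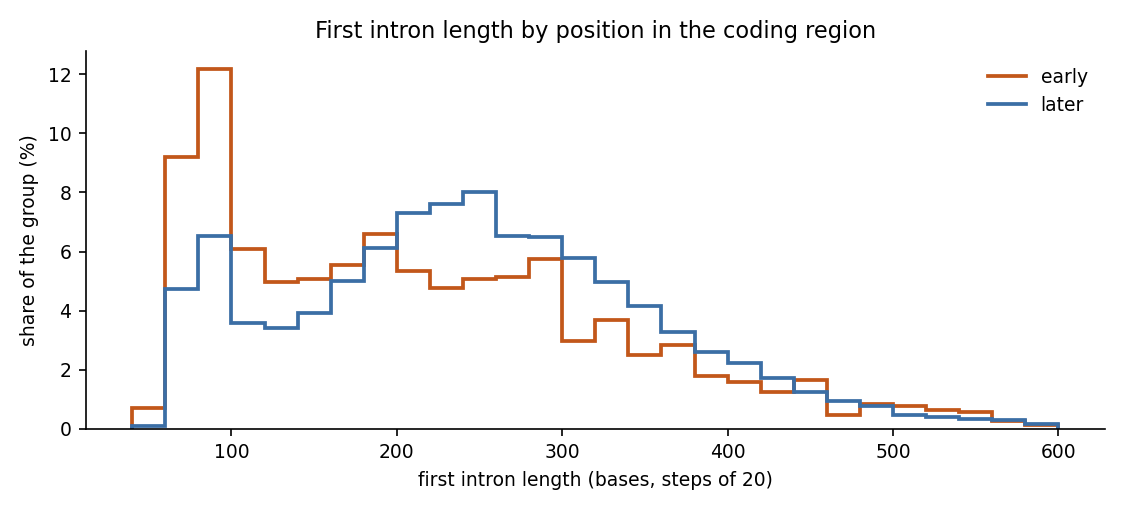
Share of first introns (y axis, percent of each group) by length in steps of 20 bases (x axis, up to 599 bases) for the 1444 early and 10666 later first introns on the chromosomes. The early introns have their highest step at 80 to 99 bases and the later introns at 240 to 259 bases.

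Intron length differed gradually with the distance from the start codon, and most of the difference lay beyond the limit of 50 bases. The 60 introns directly behind the start codon had a median of 181 bases, and 26.7% of them were 100 bases or shorter. Between 4 and 50 coding bases the medians of 5 classes of distance ran from 190 to 218 bases and the short shares from 18.3% to 25.7%, with no steady order. Introns at 51 to 75 bases resembled these, with a median of 216 bases and 21.3% short. From there the short share was lower in each further class up to 501 to 999 bases, from 16.3% at 76 to 100 bases through 12.2% at 151 to 200 and 4.56% at 301 to 500 to 2.68%, and it stood at 3.33% from 1001 bases on. The median reached 262 bases at 301 to 500. Against later first introns at 51 to 100 coding bases alone, the difference in medians was −21 bases in place of −45.

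**Figure D3:**
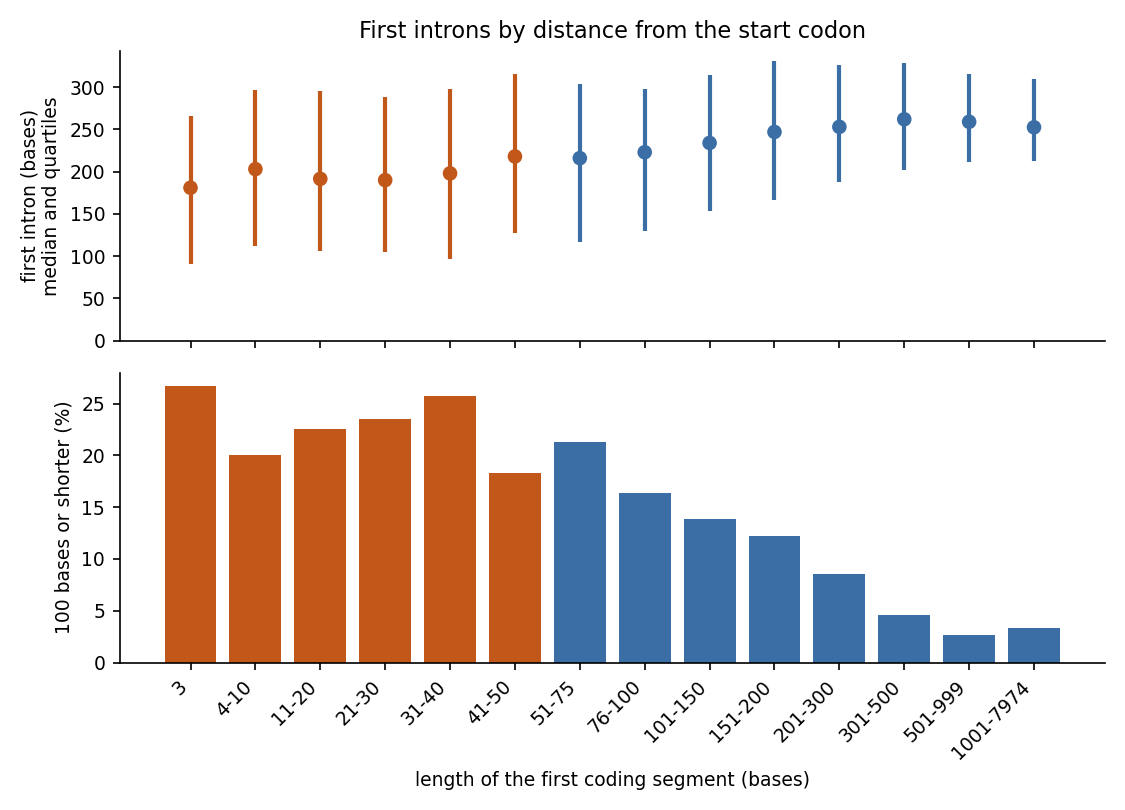
First intron length in bases (upper panel, points are medians and bars run from the lower to the upper quartile) and share of first introns of 100 bases or shorter (lower panel, percent) by length of the first coding segment in bases (x axis), with early introns in orange and later introns in blue. The short share lies between 18.3% and 26.7% in the orange classes and between 2.68% and 21.3% in the blue ones.

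Introns number 2 and 3 showed the same order by distance. Among introns 51 to 100 coding bases from the start, 18.8% of 2347 first introns and 21.8% of 238 second introns were 100 bases or shorter. At 101 to 200 bases the shares were 13.1%, 13.9% and 14.2% for introns number 1, 2 and 3. At 201 to 400 bases they were 7.70%, 5.49% and 5.195%, and beyond 400 bases 2.77%, 1.43% and 1.02%. The share thus differed more between distances than between intron numbers at one distance. The 58871 introns on the chromosomes held 2566 of 100 bases or shorter, 4.36%. Early introns were 2.45% of all introns and 12.5% of the short ones. Later first introns were 10666 of the 58871, and 1220 of the short ones, 47.5%. A raised share of the short introns was thus not particular to early introns.

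Within the genes that carry them, early introns were followed by a longer one more often than not. Among the 1249 early hosts with 2 or more introns, the first was shorter than the second in 769, 61.6%, and the median of the difference within genes was −29 bases. Over chromosomes this median was −33.3 ± 30.1 bases (SD, n = 19 chromosomes), below 0 on 18 and 9 bases on chromosome 17. Among short early introns, 86.5% (263 of 304) were shorter than the second intron. Among the other early introns the share was 53.5% (506 of 945), and the median difference was −15 bases. Short introns were chosen by their length, so this split cannot show which introns carry the difference. In later hosts the share was 56.0% (4877 of 8715) and the median −14 bases. Split in the same way, short and other later introns had shares of 88.1% (979 of 1111) and 51.3% (3898 of 7604). Their median differences were −87 and −4 bases. The second introns of early hosts had a median of 238 bases and those of later hosts 256, a difference of the same sign on 16 of 19 chromosomes that was smaller than its spread (−14.9 ± 20.6 bases, SD, n = 19 chromosomes). Short introns made up 11.0%, 4.76% and 1.81% of introns number 2, 3 and 4 in early hosts, and 5.28%, 2.33% and 1.32% in later hosts. Second introns had medians of 238 and 246 bases in later hosts with first segments of 51 to 75 and of 76 to 100 bases. With first segments of 51 to 55 bases 13.5% of second introns (29 of 215) were short, and with 46 to 50 bases 7.45% (12 of 161). Shorter second introns were thus not particular to early hosts. The last introns had medians of 267.5 and 271 bases.

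**Figure D4:**
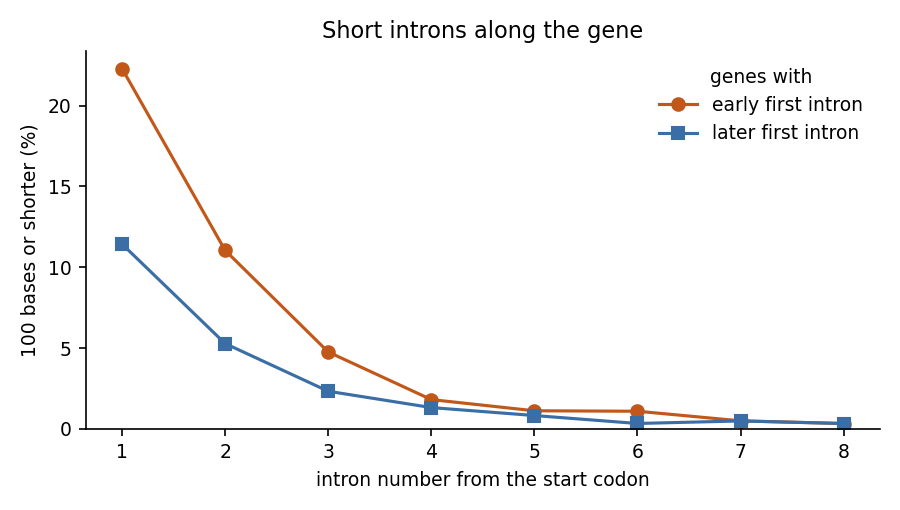
Share of introns of 100 bases or shorter (y axis, percent) by intron number counted from the start codon (x axis) in genes with an early and with a later first intron. The share goes from 22.3% to 1.81% over the first 4 introns of early hosts and from 11.4% to 1.32% in later hosts.

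The phase of early introns was close to that of later ones. Of early introns, 692 were in phase 0, 47.9%, 437 in phase 1, 30.3%, and 315 in phase 2, 21.8%. Later first introns had 49.0%, 28.6% and 22.4%. The difference in phase 0, −1.07 percentage points, was far smaller than its spread between chromosomes (−2.13 ± 7.65, SD, n = 19 chromosomes, lower on 12). Phase is the first segment length modulo 3, so it is tied to the length that chose the introns, and the 60 introns behind the start codon are in phase 0 by construction. Without them phase 0 held 45.7% of early introns. The lengths of the early introns themselves were multiples of 3 in 34.1%, so about equal shares left 0, 1 and 2 bases.

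Hosts of early introns had slightly more introns. Their mean was 5.404 introns against 4.79 in later hosts, and the difference was about as large as its spread (0.585 ± 0.649, SD, n = 19 chromosomes, higher on 16). The median was 4 introns in both. Later hosts with first segments of 51 to 75 and of 76 to 100 bases had means of 5.70 and 5.39 introns. The higher mean was thus not particular to early hosts. Early introns made up 9.09% of first introns in genes with a single intron, 11.6% in those with 3 or 4, 14.1% in those with 5 to 9 and 13.9% in those with 10 or more. Intron length moved with intron number too. In hosts with a single intron the early median was 247 bases and the later one 259, whereas in hosts with 10 or more it was 168 and 229. Short introns were 9.23% of early and 5.59% of later first introns in the former class, and 36.7% and 16.5% in the latter. Averaged within classes of intron number, the difference in median length was −44.5 bases.

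Coding regions of early hosts had a median of 1038 bases (quartiles 539.25 and 1833.75) against 1224 (732.75 and 2006.25) in later hosts, lower on 17 of 19 chromosomes (−200.0 ± 184.1 bases, SD, n = 19 chromosomes). Coding length contains the first segment, whose median was 30 bases in early and 171 bases in later hosts by the rule. The coding length behind the first segment was 1011 bases in early and 963 in later hosts. That difference was smaller than its spread between chromosomes (31.4 ± 188.5 bases, SD, n = 19 chromosomes, higher on 14). Averaged within classes of intron number its direction turned, to −83.7 bases. Second segments of early hosts were shorter, with a median of 150 bases against 174 (−25 ± 17.3 bases, SD, n = 19 chromosomes, lower on 18). They were as short in the nearest later hosts, with medians of 146 bases behind first segments of 51 to 75 bases and 149 behind 76 to 100.

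A deposited score from 0.01 to 1 accompanied 12027 of the 12110 models, and what it measures is not stated in the file. Its median was 0.84 in early and 0.76 in later hosts (0.0668 ± 0.0756, SD, n = 19 chromosomes, higher on 15). In later hosts with first segments of 51 to 75 bases the median was 0.83, and with 76 to 100 bases 0.79. A score of 1 was given to 26.0% of early and 15.2% of later hosts, higher on all 19 chromosomes (11.4 ± 6.67 percentage points, SD, n = 19 chromosomes). Scores under 0.5 were less common, 17.5% against 21.6%. Manual models were 6 of the early and 77 of the later hosts. Whether the splice sites of these models are covered by reads was not tested.

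The nearest coding region upstream of an early host was a median of 875.5 bases from its start codon, against 968 bases for later hosts. The difference was lower than 0 on 15 chromosomes and smaller than its spread between chromosomes (−104.8 ± 118.0 bases, SD, n = 19 chromosomes). That neighbour lay on the other strand, start facing start, in 57.8% of early and 52.8% of later hosts (higher on 16 of 19 chromosomes, 4.81 ± 9.27 percentage points, SD, n = 19 chromosomes). For such divergent neighbours the median distance was 806.5 bases in early and 966.5 in later hosts, lower on 17 chromosomes (−152.4 ± 107.8 bases, SD, n = 19 chromosomes). For upstream neighbours on the same strand the medians were 1032 and 969 bases, a difference far within its spread (26.1 ± 250.5 bases, SD, n = 19 chromosomes). In 162 of 14408 neighbouring gene pairs, 1.12%, both genes were early hosts, where early hosts were 10.01% of all chromosomal genes. A share of pairs cannot be set directly against a share of single genes. Whether early hosts lie side by side more or less often than other genes was not tested.

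Hosts of short early introns differed from the other early hosts in several ways at once, and later hosts divided in the same way differed in the same directions. The 322 hosts whose early intron was 100 bases or shorter had a mean of 7.30 introns, against 4.86 in the other 1122 (2.60 ± 2.15, SD, n = 19 chromosomes, higher on 18), and in later hosts the means were 5.997 and 4.63. Their second introns had a median of 158 bases against 257, lower on all 19 chromosomes (−101.6 ± 39.7 bases, SD, n = 19 chromosomes), and 30.6% against 4.76% of these were again 100 bases or shorter. In later hosts the second introns had medians of 171 and 264 bases, and 25.7% and 2.29% were short. Second segments had medians of 99 and 167 bases (−66.1 ± 51.1, SD, n = 19 chromosomes, lower on 18), and in later hosts 104 and 183. The model score had medians of 0.94 and 0.80 (0.109 ± 0.104, SD, n = 19 chromosomes, higher on 17), and in later hosts 0.88 and 0.74. Whether these differences were larger in early than in later hosts was not tested. A divergent upstream neighbour was present for 68.3% and 54.7%, higher on 15 chromosomes but within the spread (12.1 ± 20.6 percentage points, SD, n = 19 chromosomes). In later hosts it was present for 64.2% and 51.4%. The first segments of the short and the other early introns had medians of 29 and 30 bases.

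The share of early introns was compared between whole chromosomes, and the intervals of its lowest and highest values overlapped. It ran from 9.62% on chromosome 14 (53 of 551, interval 7.29 to 12.4) to 16.5% on chromosome 17 (36 of 218, 11.8 to 22.1), with a mean of 12.0 ± 1.72% (SD, n = 19 chromosomes). Chromosomes 17 and 18 had the longest first introns in both classes, with early medians of 299.5 and 282.5 bases and later medians of 320.5 and 309. Chromosomes 6 and 1 had the shortest early medians, 158.5 and 164 bases. Counted by length of sequence, early introns ran from 17.2 per Mb on chromosome 18 to 31.8 per Mb on chromosome 6. Outside the chromosomes 65 of 461 first introns were early, 14.1%.

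**Figure D5:**
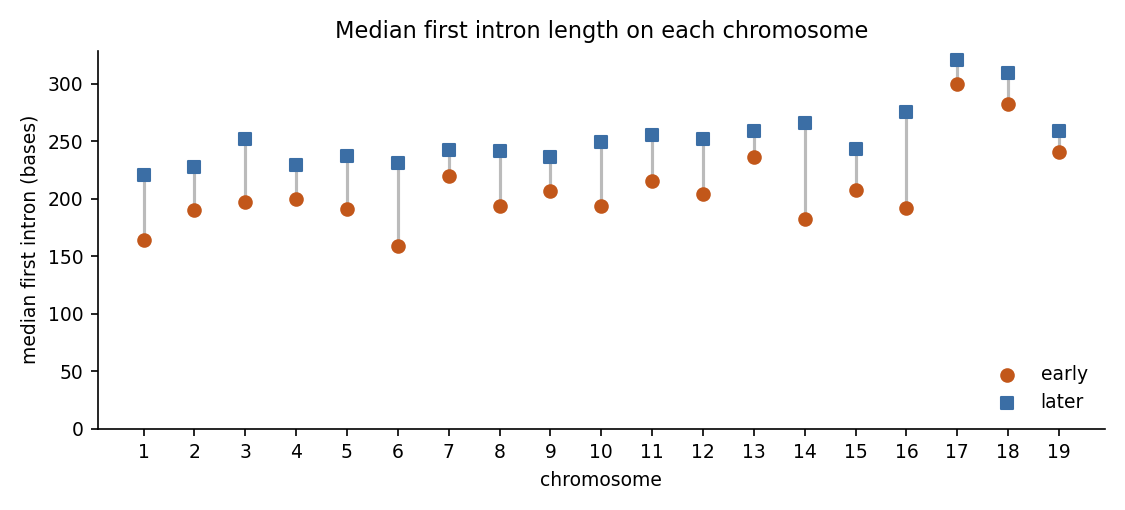
Median first intron length in bases (y axis) on each of the 19 chromosomes (x axis) for early (orange circles) and later first introns (blue squares), joined by a line. The early median lies below the later one on every chromosome, by 18.5 bases or more, and both are highest on chromosome 17.

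The extremes of the early introns lay in unnamed genes. The longest, 1839 bases, followed a 20-base segment in Cz12g08160 (chromosome 12, intron 864215 to 866053), whose model had 294 coding bases and a score of 0.42. The shortest had 42 bases, and 5 genes shared it. Each of them had a first segment of 38 bases and 213 to 327 coding bases: Cz05g04270 on chromosome 5, Cz06g22270 and Cz06g27190 on chromosome 6, and Cz15g18070 and Cz15g18120 on chromosome 15. In Cz05g04270 (intron 474648 to 474689) this was the only intron, and the model score was 1. This was the largest set of early hosts with the same first segment and intron length, and their relation by sequence was not examined. Over all early hosts 18 of 1444 shared first segment, first intron and second segment length with another. The early host with the most introns, Cz07g19250 (chromosome 7, 1982680 to 2009139), had 62, the first of them 79 bases long behind a 45-base segment. The longest coding region, 19605 bases in Cz02g04090 (chromosome 2, 451321 to 475107), began with 21 bases and an intron of 140.

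Of 461 named chromosomal genes with introns, 36 were early hosts, 7.81%, against 12.1% of the 11649 unnamed ones. The 36 lay on 15 chromosomes with a median early intron of 141 bases, and 13 introns, 36.1%, were 100 bases or shorter. Among the other 425 named genes the median first intron was 234 bases and 16.9% were short. Scores ran from 0.27 to 1 among the scored models of the 36. They were 0.55 or lower in RBCMT, CPSRP1, NYC1, FAD2A, PSAN, FNR and DGAT2F. Phases 0, 1 and 2 held 15, 16 and 5 of the 36 introns, whereas the other named genes had 226, 119 and 80. Of the 16 in phase 1, 6 lay behind a segment of 49 bases. They were RCA1, ATPA, ATPA2, PRK, NYC1 and PPD2. The word-pattern lists that follow are small, with 7 to 87 genes with introns each. Their shares stand beside 7.81% of named genes and 11.9% of all first introns, and no difference from these was tested.

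In photosynthetic electron transport and its antennae, early introns were found in genes of both photosystems and of the last electron transfer. The pattern for photosystems, light harvesting and electron transport matched 51 genes with introns, of which 5 were early hosts, 9.80%. Its words did not match LHC9, the early host among the light-harvesting genes, which is not in that share. The descriptions of most other light-harvesting genes hold none of these words either, so the share is not one of the whole antenna. FNR (Cz02g17180, chromosome 2, 1770149 to 1772210), the ferredoxin-NADP reductase that ends linear electron flow, was cut after 12 bases by an intron of 227 (1771972 to 1772198). PSAN (Cz17g10010, chromosome 17, 1002881 to 1004407), a lumenal subunit of photosystem I, was cut after 27 bases by an intron of 497, the longest among the named hosts. PSBQ2 (Cz05g09100, chromosome 5, 931745 to 933246), of the oxygen-evolving part of photosystem II, began with segments of 32, 32, 13 and 46 bases, divided by introns of 85, 83 and 145. Its relative PSBQ1 began with a segment of 208 bases. PSAF (Cz13g06010), the subunit of photosystem I that docks the electron donor, had 33 bases before an intron of 85, and its last coding segment had 4 bases. PSB28 (Cz13g07140), which takes part in photosystem II assembly, had 37 bases before an intron of 310. Of the light-harvesting genes, 21 of 22 had introns and LHC9 (Cz16g14150) alone was an early host, with 39 bases before an intron of 108. LHC4, LHC18, LHC17, LHC19, LHC5, LHC16 and LHC8 came next, at 66 to 87 bases.

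In pigment synthesis 2 early hosts were found. CHYB (Cz12g16080, chromosome 12, 1635307 to 1636957), the β-carotene hydroxylase on the way to zeaxanthin, had 18 bases before an intron of 195 (1635325 to 1635519) and a model score of 1. It was the 1 early host among 17 carotenoid and isoprenoid genes with introns. SUMT2 (Cz05g21010, chromosome 5, 2104318 to 2106221), a uroporphyrin III methyltransferase at the branch towards sirohaem, had the start codon alone before an intron of 110. The related SUMT1 began with 212 bases. SUMT2 was the 1 early host among 30 genes of the chlorophyll and tetrapyrrole pattern. The pattern missed NYC1 (Cz08g00200), the chlorophyll b reductase of chlorophyll breakdown, whose single intron of 140 bases lay behind 49 bases and in front of a segment of 1076.

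In carbon fixation 3 of 14 genes with introns were early hosts, 21.4%, beside 7.81% of all named genes and 11.9% of all first introns. A share of 14 genes is imprecise. None of the 3 introns was short. RCA1 (Cz03g15230, chromosome 3), Rubisco activase, had 49 bases before an intron of 266 (1576252 to 1576517). RBCMT (Cz05g09240), which methylates the large subunit of Rubisco, had 31 bases before an intron of 221 and a score of 0.27. PRK (Cz07g08080, chromosome 7, 832861 to 833414), phosphoribulokinase, had 49 bases before its single intron of 296, and the whole model had 258 coding bases. In glycolysis and sugar use 2 of 23 were early hosts. PFK3 (Cz16g11260, chromosome 16, 1198335 to 1203158), a phosphofructokinase, had the start codon alone before an intron of 290 (1198338 to 1198627), with a score of 1. PFK2 and PFK1 began with 166 and 265 bases. PGM3 (Cz14g01200), a phosphoglycerate mutase, had 23 bases before an intron of 142, whereas the other 4 genes of that name began with 353 to 642.

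Lipid genes held 5 early hosts among 87 with introns, 5.75%, and 4 of the 5 introns were 100 bases or shorter. SQD1 (Cz03g31030, chromosome 3, 3104886 to 3108272), which makes the head group of the plastid sulfolipid, had 19 bases before an intron of 74 (3104905 to 3104978), the shortest among the named hosts, followed by introns of 79 and 81. DGAT2F (Cz06g35060, chromosome 6), a diacylglycerol acyltransferase of triacylglycerol synthesis, had 23 bases before an intron of 79. The other 9 diacylglycerol acyltransferase genes with introns began with 141 to 454. Both omega-6 desaturases were early hosts. FAD2A (Cz03g33220, chromosome 3) had 9 bases before an intron of 216, and FAD2B (Cz08g04110, chromosome 8) had segments of 36, 37 and 44 bases divided by introns of 81 and 84. The model of FAD2A had 690 coding bases and a score of 0.54, that of FAD2B 1281 and a score of 1. LCKAS1 (Cz06g36280), a long-chain ketoacyl synthase, had 43 bases before an intron of 81. LCKAS5 (Cz17g10060), which shares internal segments of 84, 113 and 49 bases with it, began with 61 bases and an intron of 427. Of 18 LCKAS genes with introns, Cz06g36280 alone was an early host. Another gene with the symbol LCKAS1, Cz03g04040, began with 159 bases and an intron of 331.

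Plastid protein import and quality control held 4 early hosts among 32, 12.5%. TIC32A (Cz04g30040), of the inner envelope translocase, had 16 bases before an intron of 118 in a manual model, against 204 bases in TIC32B. ALB3A (Cz05g17260), which inserts light-harvesting proteins into thylakoids, had 29 bases before an intron of 79, against 124 bases in ALB3B. CLPN (Cz06g27180) had 19 bases before an intron of 224, and CPSRP1 (Cz05g34010) had 44 before 297. None of the 7 genes with introns in the list of redox proteins was an early host. That list is too small to tell its share from the 7.81% of all named genes.

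The remaining 15 named early hosts matched none of the 8 lists. ATPA (Cz04g31080, chromosome 4, 3119674 to 3122866) and ATPA2 (Cz04g32030, chromosome 4, 3205569 to 3208665), for the α subunit of mitochondrial ATP synthase, both began with 49 bases and both ended with segments of 505, 710, 168 and 201. Their first introns had 377 and 185 bases, and the segments between had 73 and 43 bases in ATPA and 31 and 49 in ATPA2. MDH1 (Cz01g16230) and MDH5 (Cz04g33150), malate dehydrogenases, had 31 and 43 bases before introns of 84 and 83. MDH2 and MDH4 began with 99 and 277. PHOT (Cz01g01240), named like the blue-light receptor phototropin, had 15 bases before an intron of 80, and EX1 (Cz01g19060), annotated as a putative retrograde signalling factor, 15 before 86. SDH4 (Cz07g14015), a membrane subunit of succinate dehydrogenase, had 28 before 79 in a manual model. HCF101 (Cz04g32150), an iron-sulfur scaffold, had 39 before 97, and PPD2 (Cz19g02070) had 49 before 455. CYP20 (Cz16g10200), a peptidyl-prolyl isomerase, had 27 before 289, and ECH2 (Cz11g22170), an enoyl hydratase, 30 before 348. LPA3B (Cz12g08020), of photosystem II accumulation, had 36 before 198, and ACBI12 (Cz05g18030) had 40 before 111. NYC1 and LHC9 are described above. Of 8 named genes at 51 to 55 bases, the 2 taken as nearest the limit were SECY2 (Cz05g25080) and OxaA2 (Cz01g09150). SECY2 had 52 bases before an intron of 342 and a score of 0.11, and OxaA2 had 53 before 196.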

How the data were processed

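The one processed file analysed holds gene models for the whole series: AUGUSTUS predictions and manual models, per the file's source column. It has start and end positions, a phase for each coding segment and a deposited score per model, and no value of any sample, so read depth is not analysed here. Per the submitters' processing notes, STAR 2.4.0j and Cuffdiff 2.2.1 were used, with no role given. The genome build is not given in the sources used here, and positions count from 1 on the header's sequences.

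Segments were ordered in transcript direction and introns taken as the gaps between them, with Python 3.11.15 and pandas 2.3.3. Reading was tested on simulated gene models. The deposited phase equalled the one from segment length in 12110 of 12110 first introns. Differences are early minus later, and their spread is the SD of the same difference over 19 chromosomes. No test over genes was run. Named genes are the 3 members of each of 8 word-pattern lists with the shortest first segments and the extremes, and the other named early hosts and their relatives were added after their values were seen. The limit of 100 bases for a short intron was also chosen after seeing the data. Members and lists were chosen with earlier results of these data known.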

Additional observations from a re-analysis of the deposited data

How the results depend on the processing

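The 10 differences and shares were recomputed under up to 14 of 15 settings each, giving 122 values, of which 115 kept their sign and moved by less than the spread between chromosomes. The share of early introns was 6.14% with a limit of 30 bases and 31.3% with 100, which follows from the limit. Against later first introns of 51 to 100 coding bases the median length differed by −21 bases. With short introns set at 80 bases, the difference in their share was 5.48 percentage points. The difference in phase 0 reversed to 3.22 percentage points with a limit of 30 bases and to 0.229 in hosts with 2 or more introns. The difference in coding length behind the first segment reversed to −83.7 bases within classes of intron number. The cause of these reversals was not tested. The settings with a limit of 80 or 120 bases, without 3-base segments, with repeated structures kept once and against 51 to 100 bases were chosen after seeing the data, as were the short-intron share and the alternatives for the coding length behind the first segment. The limits of 80 and 120 bases apply to the short-intron share alone, and the comparison with 51 to 100 bases was made for intron length and phase. Leaving out segments of 1 or 2 bases changed nothing, since none occur, nor did requiring a coding length that is a multiple of 3, since all are. Requiring 2 or more introns left the difference within genes as it was. Such values are among the 115 although they could not move. The 115 also hold changes that were large beside the difference itself. Mean introns per gene differed by 0.617, and by 0.0509 within classes of intron number, with a spread of 0.649. Classes of intron number could not be applied to the share of early introns or to the difference within genes. No paired analysis was possible because each condition has 1 library and no value of a sample was used. The accuracy of the gene models was not measured here.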
